A study of Mus musculus with 12 samples.

Results

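The 77 genes described here had less messenger RNA in Dicer-deleted than in control macrophages, both at rest and after lipopolysaccharide, and were close to flat to lipopolysaccharide (LPS, part of the outer membrane of Gram-negative bacteria, to which macrophages respond) in the control cells. They were chosen by level. A member had a mean of at least 5 CPM in control vehicle libraries, where CPM is the read count scaled to library size, with library sizes adjusted by the trimmed mean of M values. Its ratio of Dicer KO to control was at most 0.67 in vehicle and at most 0.67 in LPS, and its ratio of LPS to vehicle in control lay between 0.67 and 1.5, with 0.5 CPM added to each mean before division. The files hold 46078 genes, of which 9817 reached 5 CPM and 4865 of those were flat to LPS in control. Of the flat genes, 108 met the vehicle condition, 424 met the LPS condition, and 77 met both, which is 1.58% of flat genes and 0.784% of genes at 5 CPM or more. A further 28 genes lowered in both treatments rose more than 1.5 times with LPS in control and 169 fell below 0.67, so the flat genes are part of 274 genes at 5 CPM or more that were lowered in both treatments. The genotype ratios and the control response therefore describe the choice. They support nothing here, and edgeR's calls for them are counted once, beside the shares over all genes.

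The cells were bone marrow-derived macrophages of male C57BL/6 mice, cultured for 7 days with supernatant of L929 cells, a source of macrophage growth factor, and all donors were ApoE-/-. The Dicer KO group is labelled LysMcre/+;Dicerfl/fl;ApoE-/- and the control group LysMcre/+;Dicer+/+;ApoE-/-, although another label field calls the controls wildtype and their file names mark the LysM locus as wildtype. LysM-Cre is a Cre recombinase placed in the lysozyme gene Lyz2 and is active in myeloid cells. All cultures received diluted ethanol overnight and then phosphate-buffered saline (vehicle) or LPS, given in the labels as 100 ng/ul, for 6 h. There were 3 libraries in each of the 4 groups. The labels do not say whether replicates came from separate mice, so p-values cover only the spread among these 12 libraries, which may be technical.

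Dicer cuts hairpin precursors into mature microRNAs, which pair with messenger RNAs and lower their level. Direct targets of a microRNA are known to rise when Dicer is lost. Glycolysis turns glucose into pyruvate through a chain of enzymes, and the transcription factor HIF-1 raises many of those enzymes. HIF-1 is held down by prolyl hydroxylases while oxygen is present, and in macrophages it is also known to increase after LPS. Its binding sites hold the core ACGTG or GCGTG.

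Of the 77 genes, 12 belong to the glycolysis or the hypoxia list. The DNA before 4 of them is shown as examples that hold that core. The stretches are the 250 bases before the transcription start (RefSeq, GRCm38.p6), 5′ to 3′ on the gene's strand, with each ACGTG or GCGTG and their reverse complements in capitals. They lie at chrX:106186850-106187099 (Pgk1, plus strand), chr19:41911621-41911870 (Pgam1, plus strand), chr11:54100674-54100923 (P4ha2, plus strand) and chr6:125165774-125166023 (Gapdh, minus strand).
Pgk1: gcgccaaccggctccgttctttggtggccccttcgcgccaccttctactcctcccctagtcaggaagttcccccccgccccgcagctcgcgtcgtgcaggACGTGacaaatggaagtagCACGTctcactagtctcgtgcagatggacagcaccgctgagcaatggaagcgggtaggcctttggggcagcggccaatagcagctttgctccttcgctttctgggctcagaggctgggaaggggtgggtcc
Pgam1: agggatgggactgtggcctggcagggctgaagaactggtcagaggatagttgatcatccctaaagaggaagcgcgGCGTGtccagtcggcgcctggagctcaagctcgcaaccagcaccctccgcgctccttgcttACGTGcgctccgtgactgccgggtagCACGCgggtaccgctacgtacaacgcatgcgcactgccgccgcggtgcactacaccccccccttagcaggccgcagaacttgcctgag
P4ha2: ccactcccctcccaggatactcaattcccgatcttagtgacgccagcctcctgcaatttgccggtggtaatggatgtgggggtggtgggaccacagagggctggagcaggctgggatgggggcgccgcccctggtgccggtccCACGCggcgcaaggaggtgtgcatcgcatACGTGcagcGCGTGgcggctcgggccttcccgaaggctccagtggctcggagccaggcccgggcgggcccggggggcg
Gapdh: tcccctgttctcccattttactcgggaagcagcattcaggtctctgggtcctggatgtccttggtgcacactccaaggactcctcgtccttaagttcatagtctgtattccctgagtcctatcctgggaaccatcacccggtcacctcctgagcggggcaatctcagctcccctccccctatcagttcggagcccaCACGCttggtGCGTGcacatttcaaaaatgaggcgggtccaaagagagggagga
The Pgk1 stretch held 2 copies of ACGTG and no GCGTG. Those of Pgam1 and P4ha2 each held 1 ACGTG and 2 GCGTG, and that of Gapdh held 2 GCGTG and no ACGTG. The 250 bases before the start of Gpi1 and of Tpi1, not shown, held neither.

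Counts assigned to genes ran from 16172600 to 18886948 per library. A pair of libraries, replicate 3 of control vehicle and replicate 2 of Dicer KO vehicle, differed most from their own groups, and are called the libraries that stood apart. Between replicates, the chi-square of the counts per degree of freedom reached 13.2 and 9.19 for pairs that include the former and 11.1 and 7.87 for pairs that include the latter. The remaining pairs of the same groups were at 2.43 and 2.21, and all LPS pairs were at 4.78 or below. The members shared in this. Control vehicle replicate 3 was the lowest of its group in 62 of 77 members, Dicer KO vehicle replicate 2 in 57, and Dicer KO LPS replicate 1 was the highest of its group in 58. Without the first 2 of these libraries the median vehicle ratio of the members was 0.571 against 0.577 with them, and 69 of the 77 stayed at 0.67 or below, the highest reaching 0.711.

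All 11 macrophage markers were detected, with a summed level of 12023 to 12120 CPM in control vehicle, 11434 to 11674 CPM in Dicer KO vehicle, 11121 to 11406 CPM in control LPS and 12052 to 12286 CPM in Dicer KO LPS. These sums did not overlap between genotypes, being lower in Dicer KO in vehicle and higher in LPS. The single markers went both ways. By edgeR's test 4 were higher and 5 lower in Dicer KO vehicle, and 5 higher and 3 lower in LPS. Some sums over markers of other cells also differed by genotype, but they rested on few genes. The filter on low counts was passed by 2 of 10 B and plasma cell and 2 of 11 T and NK cell markers. It was passed by 5 of 10 dendritic cell, 4 of 8 megakaryocyte and platelet and 2 of 10 stromal and fibroblast markers. Of the B and plasma cell markers 1 reached 5 CPM in control vehicle. No shift of a whole list is read from these sums. The 10 B and plasma cell markers summed to 85.3 to 107 CPM in control vehicle against 38.8 to 54.4 CPM in Dicer KO vehicle, then 9.44 to 11.2 and 6.78 to 7.97 in LPS. The 10 dendritic cell markers were higher in Dicer KO, at 97.4 to 111 against 144 to 154 CPM in vehicle and 197 to 224 against 354 to 378 CPM in LPS. The 11 neutrophil markers overlapped between genotypes in both treatments, at 151 to 191 and 132 to 175 CPM in vehicle and 185 to 199 and 189.5 to 219.7 CPM in LPS. In LPS 3 lists of lower sum were also higher in Dicer KO with no overlap, namely T and NK cell markers (16.6 to 20 against 38 to 41.3 CPM), stromal and fibroblast markers (23.6 to 25.8 against 34.9 to 38.1 CPM) and megakaryocyte and platelet markers (65.2 to 71 against 81.5 to 96.4 CPM). In vehicle the T and NK cell markers were instead lower in Dicer KO, at 10.3 to 11.2 against 7.98 to 9.31 CPM. The remaining marker lists, erythroid and mast cell, summed to about 2 CPM or less. The defining erythroid genes Hba-a1, Hba-a2 and Hbb-bs were at 0 in every library, as were Ncr1, Fcer1a, Tpsb2 and Lum. None of these markers is among the 77 genes, and the part of other cells in the results was not tested. In bulk samples fewer cells of a type and less RNA per cell cannot be told apart.

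All 77 genes passed the filter on low counts. Their median genotype ratio was 0.577 in vehicle and 0.449 in LPS, and the ratio was lower in LPS than in vehicle for 62 of the 77, against 2639 of the 4865 flat genes. In vehicle 20 members were at 0.5 or less, in LPS 44, and in both treatments 16. Their control response to LPS had a median ratio of 0.926, from 0.674 to 1.49. In each treatment every Dicer KO library was below every control library for all 77 genes, which held for 26.5% of genes at 5 CPM or more in vehicle and 34.4% in LPS. edgeR called 77 members lower in vehicle (of the 13837 genes tested 21.2% were called lower and 46.2% in either direction) and 76 in LPS (27% lower and 55.8% in either direction), the exception being Kdm6b. In the control response to LPS 18 members were called higher, 24 lower and 35 not at all, while 79.1% of genes tested were called, 38% higher and 41.1% lower. With libraries scaled by their totals, calls over all genes were 2229 higher and 4577 lower for genotype in vehicle and 1885 and 7626 in LPS, against 3459 and 2935 and 3983 and 3741 here. For LPS in control they were 3066 higher and 8737 lower against 5258 and 5690. The member counts follow from the choice, and nothing is read from them.

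**Figure D1:**
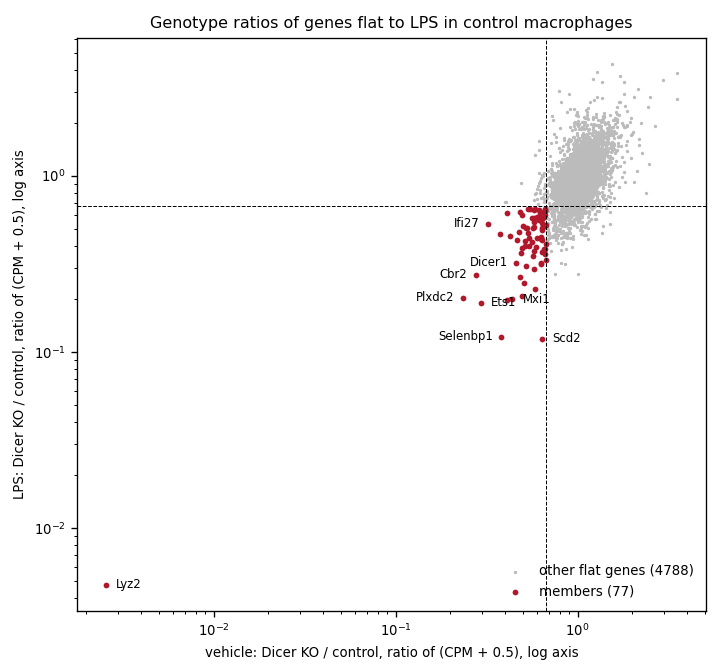
Ratio of Dicer KO to control in vehicle (x axis) and in LPS (y axis), both on log axes, for the 4865 genes flat to LPS in control; red points are the 77 members and dashed lines mark 0.67. Lyz2 lies far from the rest at 0.00255 and 0.00477, and Scd2 and Selenbp1 lie at the low end in LPS.

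Genes chosen on 2 replicates kept their direction in the third, whose ratios had no part in that choice. Scaling and the filter on low counts used all 12 libraries, and the replicates may be technical. The counts therefore describe these libraries and are not independent support. The rule applied to replicates 2 and 3 alone gave 80 genes, 62 of them among the 77, and in replicate 1 all 80 had ratios under 1 in both treatments and 52 of them (65%) were at 0.67 or less in both. In replicate 1, 34 of the 80 met the whole rule, the control response included. With replicate 2 left out it gave 57 genes, all again under 1, of which 50 (87.7%) were at 0.67 or less in replicate 2 and 43 met the whole rule there. With replicate 3 left out it gave 82 genes, all under 1 in replicate 3, of which 34 (41.5%) were at 0.67 or less and 29 met the whole rule there, with a median vehicle ratio of 0.702. Among all flat genes the shares at 0.67 or less in the replicate left out were 1.54, 2.18 and 0.894%. Median ratios of flat genes there were 1.02, 1.03 and 1.00 in vehicle and 0.983, 0.989 and 0.999 in LPS. The share of flat genes under 1 in both treatments was not counted, so the counts under 1 have no share to be set against. Replicate 3 includes the control vehicle library with the low levels described above.

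**Figure D2:**
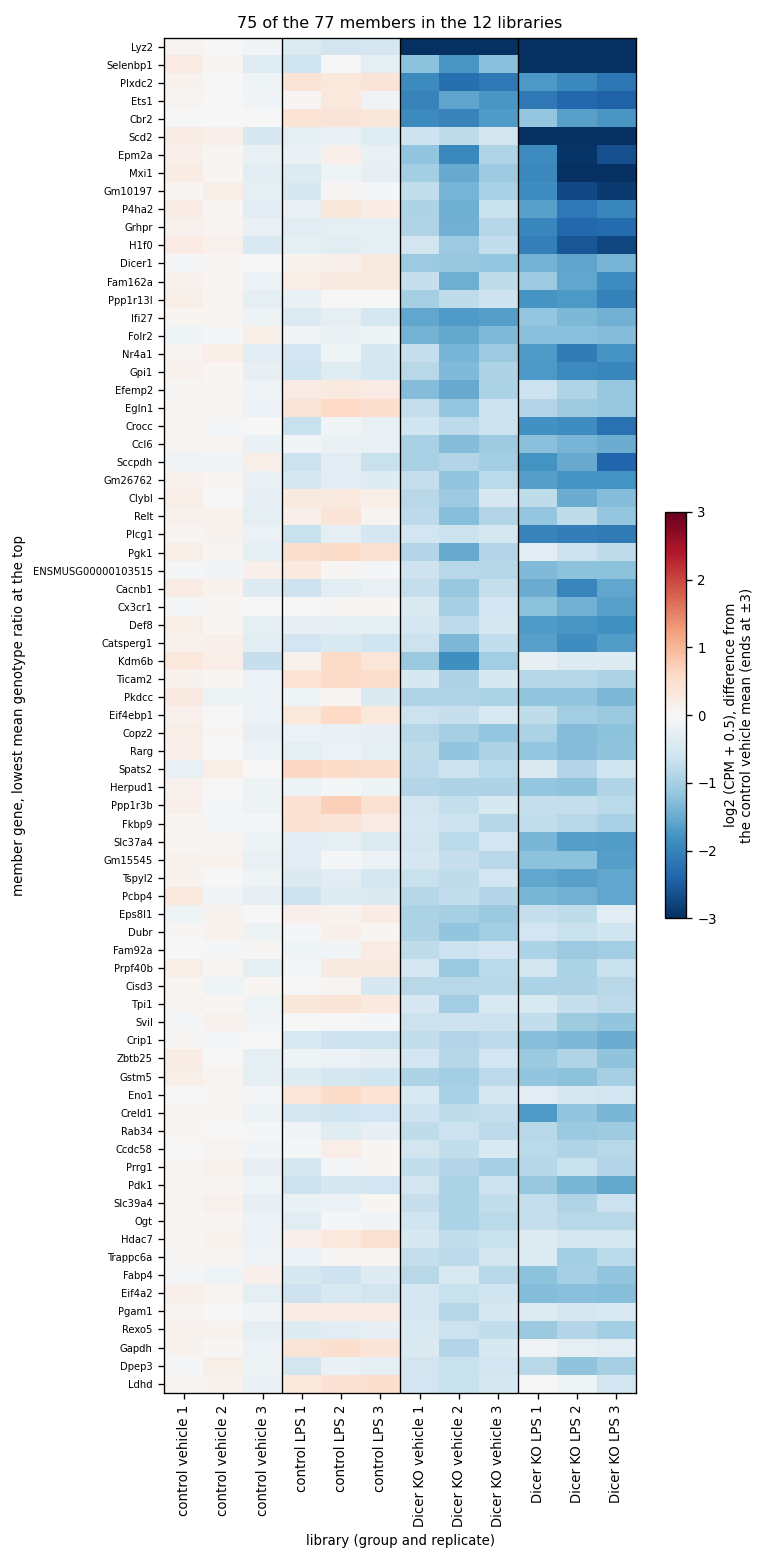
Level of each of 75 of the 77 members (rows) in the 12 libraries (columns), as the log2 (CPM + 0.5) difference from the control vehicle mean, with colours ending at 3 in either direction. Rows run from the lowest mean genotype ratio at the top, Lyz2, and all Dicer KO columns are below the control columns of the same treatment.

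The deleted gene itself is a member. Dicer1 (chromosome 12, 104687742 to 104751952, GRCm38) measured 42.6, 45.3 and 43.1 CPM in the control vehicle libraries and 20.1, 19.7 and 19.4 CPM in those of Dicer KO. In LPS it measured 47, 48.6 and 52.5 CPM in control and 15.9, 14.3 and 16.3 CPM in Dicer KO. Replicates lay close together and the genotypes were far apart, with ratios of 0.458 and 0.321. A count over the whole gene does not measure working Dicer, since deletion of a floxed exon can leave much of the transcript. Within Dicer KO, Dicer1 fell with LPS (log2 fold change −0.35 ± 0.07 SE, adjusted p = 3.24e-04).

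Lyz2, which encodes lysozyme M and holds the LysM-Cre insertion, was the most abundant member and had the lowest ratios. It measured 6041, 5729.6 and 5370.5 CPM in the control vehicle libraries and 15.6, 12.7 and 14 CPM in Dicer KO vehicle. In LPS the control libraries were at 4281, 3891 and 4008 CPM and the Dicer KO libraries at 16.2, 20.6 and 19.9 CPM. The ratios were 0.00255 and 0.00477, so the libraries compared are unlike in Lyz2 as well as in Dicer1. The titles list the same LysMcre/+ for both genotypes and do not account for this difference. Whether that label holds for either group was not tested. What the difference in the Lyz2 locus contributes to the other members cannot be told apart from Dicer deletion in this design. Lyz2 has a close paralog, Lyz1, which can share reads with it.

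Ifi27, an interferon-inducible gene, was the sole member within 2 Mb of Dicer1, at a distance of 1.25 Mb, where 14 genes reached 5 CPM. It measured 66.7, 67.7 and 57 CPM in control vehicle against 21.4, 19.4 and 20 CPM in Dicer KO vehicle, and 48.1, 52.1 and 44.1 CPM against 28.2, 24.6 and 23.1 CPM in LPS. Crip1, a small LIM-domain protein, lay 8.39 Mb from Dicer1 with ratios of 0.576 and 0.577. No other member lay within 10 Mb of Dicer1, and none lay within 10 Mb of Lyz2, where 54 genes reached 5 CPM. The part of flanking DNA in these differences was not tested.

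Steps of glycolysis or its exit are encoded by 7 members, and 5 of the 6 most abundant members were glycolytic enzymes. Gpi1, which converts glucose 6-phosphate to fructose 6-phosphate, measured 981, 934 and 755 CPM in the control vehicle libraries and 496, 354 and 467 CPM in Dicer KO vehicle. In LPS it was at 589, 690.1 and 622 CPM in control and 271, 235 and 228 CPM in Dicer KO, giving ratios of 0.494 and 0.387. Gpi1 was lower with LPS in each genotype, and its 4 groups did not overlap.

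Tpi1, which interconverts the triose phosphates, was at 753, 738 and 650.0 CPM in the control vehicle libraries, 501, 346 and 517 CPM in Dicer KO vehicle, 900.2, 934 and 878 CPM in control LPS and 523, 439 and 411 CPM in Dicer KO LPS. Gapdh, which oxidises glyceraldehyde 3-phosphate, was at 1548, 1477 and 1277 CPM in the control vehicle libraries and 1057, 780.0 and 1025 CPM in Dicer KO vehicle. In LPS Gapdh was at 1883, 1986 and 1877 CPM and 1328, 1164 and 1131 CPM. Gapdh is often used as a reference gene for quantitative PCR, and here its genotype ratios were 0.665 and 0.630.

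Pgk1 (chromosome X, 106187100 to 106203699), the first step that yields ATP, had the lowest vehicle ratio of the glycolytic members. It measured 888, 814 and 652 CPM in the control vehicle libraries and 429, 274 and 425 CPM in Dicer KO vehicle, a ratio of 0.479. With LPS it was at 1099, 1153 and 1086 CPM in control and 621, 505 and 464 CPM in Dicer KO, a ratio of 0.477. Every Dicer KO library, with or without LPS, was below every control library. Without the 2 libraries that stood apart the vehicle ratio was 0.502, and Pgk1 still met the rule. It was the sole glycolytic member to do so, since the other 6 then lay outside a limit. The vehicle ratio became 0.683 for Tpi1, 0.688 for Gapdh, 0.682 for Pgam1 and 0.711 for Eno1. The control response became 0.662 for Gpi1 and 0.651 for Pdk1. With scaling kept, 62 of the 77 members met the rule without those libraries.

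Pgam1, the phosphoglycerate mutase of the next step, was at 243, 233 and 213 CPM in the control vehicle libraries, 163, 127 and 162 CPM in Dicer KO vehicle, 269.6, 273 and 273 CPM in control LPS and 175, 161 and 167 CPM in Dicer KO LPS. Eno1, which makes phosphoenolpyruvate, was at 945, 954 and 902 CPM in the control vehicle libraries and 686, 477 and 664 CPM in Dicer KO vehicle, then 1209.5, 1367 and 1237 CPM and 742, 644 and 627 CPM in LPS. Its ratio was 0.652 in vehicle and 0.528 in LPS. Pdk1, a kinase that shuts pyruvate out of the mitochondrial pyruvate dehydrogenase, was at 157, 158 and 138 CPM in the control vehicle libraries and 103, 77.5 and 97.5 CPM in Dicer KO vehicle. In LPS Pdk1 was at 97.2, 109 and 101 CPM and 68.4, 57.8 and 52.2 CPM. Dicer KO vehicle replicate 2 was the lowest of its group for all 7 genes. Several of these genes have processed pseudogenes that can draw reads, so their absolute levels are uncertain.

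**Figure D3:**
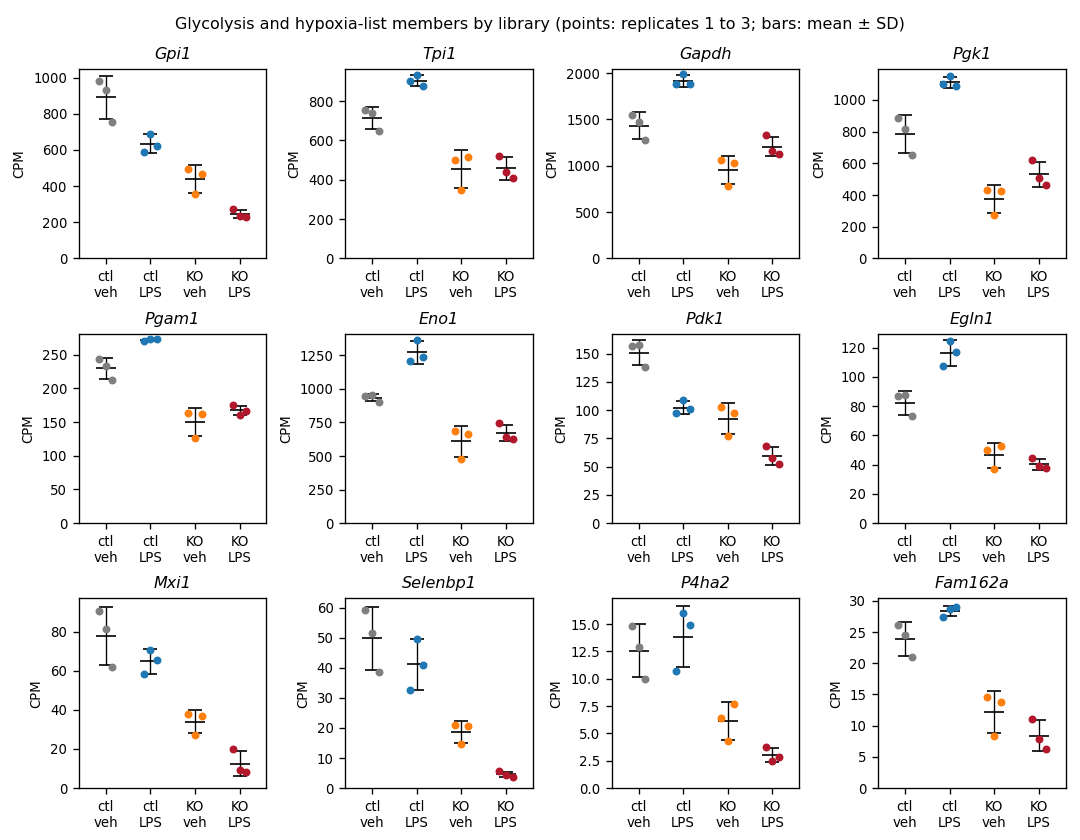
CPM of the 12 members of the glycolysis and hypoxia lists in each library (points) with the group mean and SD (bars), on linear axes that start at 0. In every panel the Dicer KO points lie below the control points of the same treatment; Pgk1, for example, averages 785 and 376 CPM in vehicle.

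Over the rest of the glycolysis list lower calls outnumbered higher ones, and the genes missed 1 or more parts of the rule. Of the 24 other genes tested on the list, 14 were lower and 1 higher in Dicer KO vehicle by edgeR's test, and 13 lower and 3 higher in LPS, while over all genes tested 21.2% were lower and 25% higher in vehicle and 27% lower and 28.8% higher in LPS. The median log2 fold change of the 31 listed genes was −0.46 in vehicle and −0.61 in LPS, against 0.01 and −0.03 over all genes tested. The 31 include the 7 members, which were chosen for low ratios, so these medians are partly set by the rule. Aldoa, the aldolase of the pathway, lay just outside at a vehicle ratio of 0.677 with an LPS ratio of 0.657. Pkm, the last enzyme, had ratios of 0.800 and 0.723, and Ldha, which makes lactate, 0.691 and 0.605. Slc16a3, the lactate exporter, Pfkl, a phosphofructokinase, and Gys1, glycogen synthase, were at most 0.67 in both treatments but were over 1.5 times higher with LPS in control. Slc2a1, the glucose transporter, had ratios of 0.558 in vehicle and 0.812 in LPS, and Hk2, a hexokinase, 0.599 and 0.887. Hk3, another hexokinase, was higher in Dicer KO, with log2 fold changes of 0.75 ± 0.08 SE in vehicle (adjusted p = 1.42e-06) and 0.98 ± 0.08 SE in LPS (adjusted p = 2.41e-08). Hk1 rose by 0.21 ± 0.06 SE in LPS (adjusted p = 0.00656) and Pfkfb3 by 0.36 ± 0.10 SE (adjusted p = 0.00815), while Pfkfb3 fell by 0.73 ± 0.11 SE in vehicle (adjusted p = 1.38e-04).

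**Figure D4:**
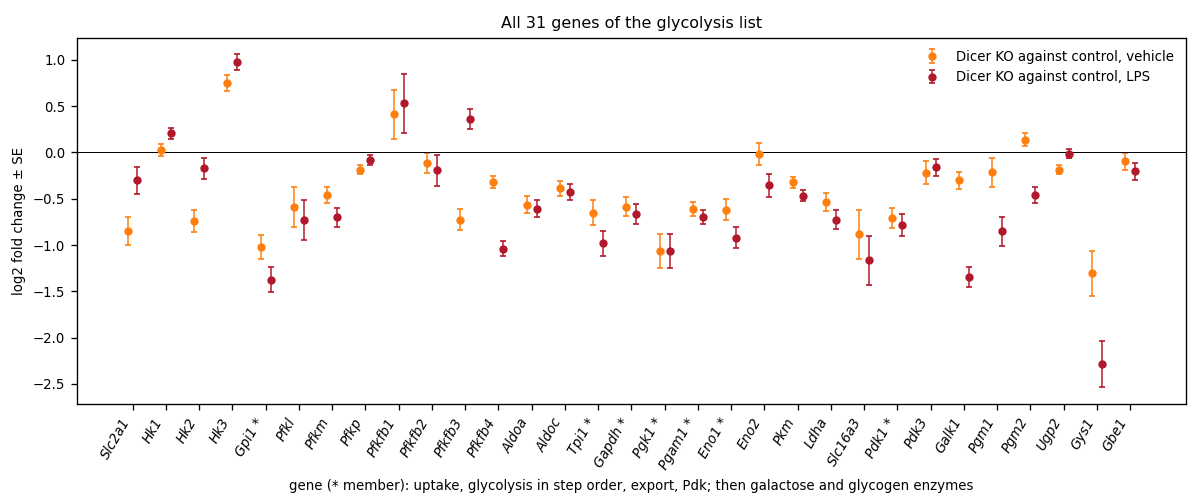
Log2 fold change of Dicer KO against control with its SE for all 31 genes of the glycolysis list, in vehicle (orange) and LPS (red); asterisks mark the 7 members, whose values chose them. Hk3 lies above 0 in both treatments at 0.75 and 0.98, while every point from Aldoa to Ldha lies below 0.

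The list of hypoxia and HIF target genes holds 7 members, of which Pgk1 and Pdk1 are also on the glycolysis list. Egln1 is the prolyl hydroxylase that marks HIF for destruction and is itself a HIF target. It measured 86.6, 87.3 and 73 CPM in the control vehicle libraries and 49.8, 36.8 and 52.8 CPM in Dicer KO vehicle. With LPS it was at 107, 125 and 117 CPM in control and 44.6, 39 and 37.4 CPM in Dicer KO. The groups were separate in both treatments and the ratio was 0.567 in vehicle and 0.349 in LPS.

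Mxi1, a partner of Max that represses Myc targets, was at 90.6, 81.3 and 61.6 CPM in the control vehicle libraries and 37.9, 27.1 and 36.6 CPM in Dicer KO vehicle. In LPS the control libraries were at 58.2, 70.7 and 65.2 CPM and the Dicer KO libraries at 19.9, 9.31 and 8.06 CPM. Replicate 1 of Dicer KO LPS was well above the other two, and all 3 were below every other group. The predicted gene Gm10197, also a member, lies on the opposite strand within Mxi1 with 96.5% of its exonic bases overlapped, so that reads of the pair cannot be told apart there without the strand setting.

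Selenbp1 (chromosome 3, 94933056 to 94944758) encodes a selenium-binding methanethiol oxidase. It measured 59.4, 51.6 and 38.7 CPM in the control vehicle libraries, 20.8, 14.6 and 20.5 CPM in Dicer KO vehicle, 32.8, 49.6 and 41.1 CPM in control LPS and 5.56, 4.36 and 3.77 CPM in Dicer KO LPS. Its ratio moved from 0.380 in vehicle to 0.121 in LPS, and only Lyz2 had a lower geometric mean of the 2 ratios. P4ha2, a prolyl hydroxylase subunit that acts on collagen, was low throughout, at 14.9, 12.9 and 9.99 CPM in the control vehicle libraries and 6.42, 4.27 and 7.70 CPM in Dicer KO vehicle. In LPS it was at 10.7, 16 and 14.9 CPM in control and 3.76, 2.48 and 2.86 CPM in Dicer KO. Fam162a, a mitochondrial protein linked to cell death in hypoxia, was at 26.1, 24.6 and 20.9 CPM in the control vehicle libraries, 14.5, 8.34 and 13.8 CPM in Dicer KO vehicle, 27.4, 28.7 and 29 CPM in control LPS and 11, 7.81 and 6.18 CPM in Dicer KO LPS. Wdr5b overlaps 19.8% of its exonic bases on the opposite strand. Its neighbour Ccdc58, a mitochondrial protein gene on the other strand, starts 91 bp away and is a member too, with ratios of 0.669 and 0.527.

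Of the 32 other hypoxia genes tested, 23 were lower and 3 higher in Dicer KO vehicle and 22 lower and 3 higher in LPS, by the same test and with the same shares over all genes. The median log2 fold change of the 39 listed genes was −0.73 in vehicle and −1.02 in LPS. The 39 include the 7 members, so these medians too are partly set by the rule. Among the 32, 10 met both genotype conditions at 5 CPM or more and were left out for their LPS response in control. Bnip3, Ero1l, Ak4, Gys1 and Plod2 were over 1.5 times higher with LPS, and Vegfa, Egln3, Ndrg1, Ankrd37 and Hilpda were under 0.67. The lists were written with earlier results of these data known, so the counts describe the genes and are not independent evidence of a direction.

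Glycogen, sugar phosphates and sugar modification account for 4 members. Ppp1r3b, which directs a phosphatase to glycogen, was at 26.5, 23.1 and 21.4 CPM in the control vehicle libraries and 16.1, 14.2 and 16.8 CPM in Dicer KO vehicle. In LPS it was at 32, 39.2 and 32.9 CPM and 14.3, 14.3 and 13.3 CPM. Control LPS was the highest group, while the Dicer KO groups overlapped. Epm2a, the glycogen phosphatase laforin, was at 10.3, 9.37 and 7.77 CPM in the control vehicle libraries and 3.77, 2.01 and 4.62 CPM in Dicer KO vehicle, then 7.86, 10.2 and 7.81 CPM and 2.10, 0.751 and 1.05 CPM in LPS. Slc37a4, which carries glucose 6-phosphate into the endoplasmic reticulum, had ratios of 0.641 and 0.430. Ogt, which adds N-acetylglucosamine to proteins, was abundant at 323 ± 31.1 CPM (SD, n = 3) in control vehicle, with ratios of 0.580 and 0.643.

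Another 9 members act on lipids and other small molecules. Scd2 (chromosome 19, 44293674 to 44306864), a fatty acid desaturase, differed most between treatments. It measured 162, 155 and 100.1 CPM in the control vehicle libraries and 89.9, 82 and 94.6 CPM in Dicer KO vehicle. In LPS the control libraries stayed at 113, 118 and 108 CPM and the Dicer KO libraries were at 12.3, 13.1 and 13.4 CPM. The ratio was 0.640 in vehicle and 0.119 in LPS. Control vehicle replicate 3, the lowest of its group, lay just above the Dicer KO vehicle libraries, and the vehicle ratio without the libraries that stood apart was 0.583. Scd2 has paralogs of similar sequence.

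Fabp4, which carries fatty acids in macrophages and fat cells, had ratios of 0.614 and 0.642. Cbr2, a carbonyl reductase, was at 19, 18.9 and 19.1 CPM in the control vehicle libraries and 4.70, 4.38 and 5.55 CPM in Dicer KO vehicle, then 25.6, 25.2 and 24.2 CPM and 8.27, 5.78 and 5.35 CPM in LPS, with ratios of 0.275 and 0.273. Grhpr, which reduces glyoxylate, was at 13.7, 13.2 and 10.6 CPM in the control vehicle libraries, 6.42, 4.27 and 6.67 CPM in Dicer KO vehicle, 9.89, 10.4 and 10.4 CPM in control LPS and 2.86, 2.03 and 2.11 CPM in Dicer KO LPS. Ldhd, the dehydrogenase of D-lactate, was near the edge of the rule with ratios of 0.664 and 0.645, and 42.2% of its exonic bases overlap Znrf1 on the opposite strand. The other 4, Clybl, Gstm5, Cisd3 and Sccpdh, were named after their values were seen and measured below 10 CPM in control vehicle.

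Among the 11 members that encode surface receptors, chemokines, adaptors or other membrane proteins, Plxdc2, a plexin-domain receptor, had the lowest ratios. Plxdc2 (chromosome 2, 16356304 to 16755839) was at 37.9, 35.8 and 32.6 CPM in the control vehicle libraries and 9.03, 7.00 and 7.65 CPM in Dicer KO vehicle. In LPS it was at 46.8, 44.4 and 46.4 CPM in control and 10.4, 8.86 and 7.46 CPM in Dicer KO, and the ratios were 0.234 and 0.203. Ccl6, a macrophage chemokine, was at 229, 227 and 188 CPM in the control vehicle libraries and 109, 87.4 and 102 CPM in Dicer KO vehicle, then 204, 186 and 184 CPM and 89.1, 81.7 and 76.5 CPM in LPS.

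Cx3cr1 and Folr2, known from tissue macrophages, were singled out after their values were seen. Cx3cr1, the fractalkine receptor, was nearly the same in all 6 control libraries, at 17.9, 18.6 and 18.3 CPM in vehicle and 18.1, 18.7 and 18.9 CPM in LPS. In Dicer KO it was at 13.4, 8.96 and 12.2 CPM in vehicle and 7.51, 6.38 and 5.57 CPM in LPS. Folr2, a folate receptor, was at 139, 146 and 172 CPM in the control vehicle libraries and 56.8, 52.2 and 60.7 CPM in Dicer KO vehicle, then 141, 132 and 136 CPM and 63.4, 63.8 and 61.8 CPM in LPS. Folr2 shares 63.1% of its exonic bases with the antisense gene Gm10602, which measured 6.82 CPM in control vehicle. Ticam2, an adaptor of the LPS receptor, and Relt, a receptor of the tumour necrosis factor family, were likewise chosen after their values were seen. Their ratios were 0.656 and 0.383 for Ticam2 and 0.512 and 0.427 for Relt.

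There are 9 members that act on transcription and chromatin. Ets1, a transcription factor best known from lymphocytes, was at 9.51, 9.04 and 8.44 CPM in the control vehicle libraries and 1.86, 2.68 and 2.33 CPM in Dicer KO vehicle. With LPS it was at 9.24, 11.3 and 8.31 CPM in control and 1.65, 1.35 and 1.28 CPM in Dicer KO, with ratios of 0.294 and 0.191. The sum of B and plasma cell markers given above, of which 1 gene reached 5 CPM in control vehicle, was also lower in Dicer KO. The part of such cells in the Ets1 value was not tested.

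H1f0, a linker histone, was at 196, 183 and 122 CPM in the control vehicle libraries, 113, 78.2 and 99.2 CPM in Dicer KO vehicle, 137, 135 and 137 CPM in control LPS and 40, 27.6 and 24.6 CPM in Dicer KO LPS. The last group stood far below the other 3. Nr4a1, an orphan nuclear receptor of monocytes and macrophages, was at 17.8, 19.3 and 13.5 CPM in the control vehicle libraries and 10.2, 6.13 and 7.65 CPM in Dicer KO vehicle, then 11.1, 15.4 and 11.9 CPM and 4.88, 3.53 and 4.59 CPM in LPS. Kdm6b, a histone demethylase that acts on a repressive mark, was at 32.5, 30 and 15.8 CPM in the control vehicle libraries and 11.7, 6.90 and 12.4 CPM in Dicer KO vehicle. In LPS it was at 28.6, 38.9 and 33.6 CPM and 21.8, 19.5 and 19.9 CPM. For Kdm6b, replicate 3 of control vehicle and replicate 2 of Dicer KO vehicle were each well below the rest of their group, and its vehicle ratio was 0.408 with them and 0.396 without. Ppp1r13l, an inhibitor of p53, had ratios of 0.578 and 0.294. The remaining 4 genes, Rarg, Hdac7, Zbtb25 and Tspyl2, were named after their values were seen, and Rarg, a retinoic acid receptor, had ratios of 0.518 and 0.505.

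There are 6 members that act on RNA or translation. Eif4a2, a helicase of translation initiation, was at 189, 181 and 141 CPM in the control vehicle libraries, 119.8, 107 and 113 CPM in Dicer KO vehicle, 112, 125 and 116 CPM in control LPS and 68.7, 70.8 and 69.8 CPM in Dicer KO LPS. Eif4ebp1, a repressor of translation initiation, was at 44.2, 40.8 and 35.9 CPM in the control vehicle libraries and 25.8, 24.6 and 29.1 CPM in Dicer KO vehicle, then 50.6, 61.3 and 50.7 CPM and 23.7, 19.5 and 18.4 CPM in LPS. Its control libraries were higher with LPS and its Dicer KO libraries lower. The others of this set were Pcbp4, Rexo5, Prpf40b and Spats2, at 6.31 to 10.3 CPM in control vehicle.

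Signalling, cytoskeleton and trafficking proteins made up 11 members, with ratios from 0.495 to 0.669 in vehicle and from 0.316 to 0.617 in LPS. Plcg1, a phospholipase that makes second messengers, was just inside the vehicle limit at 0.669 and had a ratio of 0.331 in LPS. It measured 22, 22.9 and 18.7 CPM in the control vehicle libraries, 14.1, 13.4 and 14.4 CPM in Dicer KO vehicle, 13.2, 17.4 and 14.9 CPM in control LPS and 4.88, 4.66 and 4.52 CPM in Dicer KO LPS. Crocc, a structural protein of the ciliary rootlet, was at 9.06, 8.39 and 8.57 CPM in the control vehicle libraries and 5.58, 4.84 and 5.41 CPM in Dicer KO vehicle, then 5.24, 8.23 and 7.38 CPM and 2.10, 2.03 and 1.43 CPM in LPS. Def8, a regulator of lysosome position, had ratios of 0.663 and 0.359. Eps8l1, Svil, Rab34, Copz2, Trappc6a, Fam92a and Crip1 are also of this set.

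There are 5 members of the endoplasmic reticulum or the secretory path. Herpud1, which takes part in the disposal of misfolded proteins, was at 41.5 ± 4.08 CPM (SD, n = 3) in control vehicle with ratios of 0.530 and 0.508. Efemp2, an elastic fibre protein, was lower at 7.77 ± 0.544 CPM with ratios of 0.425 and 0.453, and Fkbp9, Creld1 and Pkdcc had vehicle ratios from 0.532 to 0.632. Catsperg1, a sperm channel subunit, and the membrane proteins Prrg1, Dpep3, Slc39a4 and Cacnb1 measured from 5.16 to 8.25 CPM in control vehicle. Another 5 members carry a noncoding, predicted or unmatched identifier. The noncoding RNA Dubr had ratios of 0.483 and 0.624, and Gm26762, whose exons overlap those of Gpi1 on the opposite strand, 0.540 and 0.399. Because the strand setting of the counting is not given, reads of Gpi1 and Gm26762 cannot be told apart where they overlap. Gm15545 and ENSMUSG00000103515, which matched no gene name, measured 5.78 and 5.06 CPM.

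The response to LPS in Dicer KO had no limit of its own in the rule. It is nevertheless built from the genotype ratios and the control response, all of which the rule limits. The calls and adjusted p-values given for members in this comparison therefore describe them and are not independent support. Of the 77 genes, 44 (57.1%) fell, 11 (14.3%) rose and 22 (28.6%) were not called by edgeR at an adjusted p under 0.05. Over all genes tested 42.7% fell and 37.4% rose (80.1% called), and over the flat genes 38.5% fell and 33.9% rose (72.4% called). The median log2 fold change of the members was −0.37 in Dicer KO and −0.12 in control, against −0.10 and −0.06 over all genes, with −0.03 over the flat genes in Dicer KO. Both responses share libraries with the ratios that defined the members, so a low ratio in LPS goes with a low response in Dicer KO by construction. The Dicer KO groups did not overlap for 39 of the 77 members (50.6%) with LPS below vehicle and for 9 (11.7%) with LPS above, against 46.3% and 40.2% of genes at 5 CPM or more. They did not overlap for 38 of the 44 members that fell and 8 of the 11 that rose. Without Dicer KO LPS replicate 1, 5 members rose and 41 fell, and without Dicer KO vehicle replicate 2, 6 rose and 45 fell. Without both libraries that stood apart 9 rose and 47 fell.

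Among the genes that fell, 33 had a control ratio under 1 and 11 over 1, and 14 were at a log2 fold change of −1 or below. Scd2 fell most, by a log2 fold change of −2.78 ± 0.19 SE (adjusted p = 1.91e-07), beside −0.30 in control. Selenbp1 followed at −2.04 ± 0.30 (adjusted p = 1.18e-04) beside −0.27 in control, and H1f0 at −1.66 ± 0.24 (adjusted p = 1.55e-04) beside −0.29. Plcg1 fell to −1.58 ± 0.13 (adjusted p = 1.13e-09), Crocc to −1.51 ± 0.20 (adjusted p = 9.74e-07) and Mxi1 to −1.45 ± 0.32 (adjusted p = 0.00221). Their control values were −0.48, −0.31 and −0.27. The predicted gene Gm10197, which overlaps Mxi1 on the opposite strand, was at −1.59 ± 0.31 (adjusted p = 4.18e-04). Epm2a (−1.42), Grhpr (−1.32), Ppp1r13l (−1.22) and Def8 (−1.19) complete the 10 largest falls among members with a gene name, with adjusted p from 7.13e-08 to 0.00323. P4ha2 (−1.02), Slc37a4 (−0.97), Cacnb1 (−0.95), Nr4a1 (−0.89), Gpi1 (−0.84), Eif4a2 (−0.70), Ets1 (−0.67), Pdk1 (−0.64), Crip1 (−0.57) and Fabp4 (−0.43) also fell, with adjusted p from 1.10e-07 to 0.0105. Fam162a (−0.56, adjusted p = 0.0452) and Ccl6 (−0.27, adjusted p = 0.0147) were called as well, but the call of Fam162a was lost in 13 of the alternatives and that of Ccl6 in 4.

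The rises were smaller, and they hold relative to the bulk of the genes. When libraries were scaled by their totals the median of all genes in this comparison moved from −0.10 to −0.85, and 72 members were called lower and none higher by edgeR. Over all genes the calls went from 5173 higher and 5905 lower to 2637 and 9623. Kdm6b rose by 0.97 ± 0.32 SE (adjusted p = 0.0193), with 0.37 in control, and had no call at 0.22 under library totals. Pgk1 rose by 0.50 ± 0.18 (adjusted p = 0.0298) and Gapdh by 0.34 ± 0.10 (adjusted p = 0.00751), beside 0.50 and 0.42 in control, and both turned to −0.25 and −0.41 under library totals. Eps8l1 (0.47), Dubr (0.44), Lyz2 (0.42), Ldhd (0.41), Cbr2 (0.40), Efemp2 (0.40) and Ifi27 (0.32) also rose, with adjusted p from 8.20e-05 to 0.0491, and each turned negative under library totals. The rises of Kdm6b, Pgk1, Cbr2 and Efemp2 lost their call without Dicer KO vehicle replicate 2, at 0.76, 0.31, 0.33 and 0.27. They also lost it without Dicer KO LPS replicate 1, as did Ldhd, at 0.92, 0.37, 0.19, 0.24 and 0.28. Over the alternatives the call of Efemp2 was lost in 14, more than that of Fam162a, and the call of Pgk1 in 5. Of the glycolytic members Tpi1, Pgam1 and Eno1 were not called in Dicer KO, at 0.01, 0.16 and 0.14, and neither was Egln1 at −0.21.

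**Figure D5:**
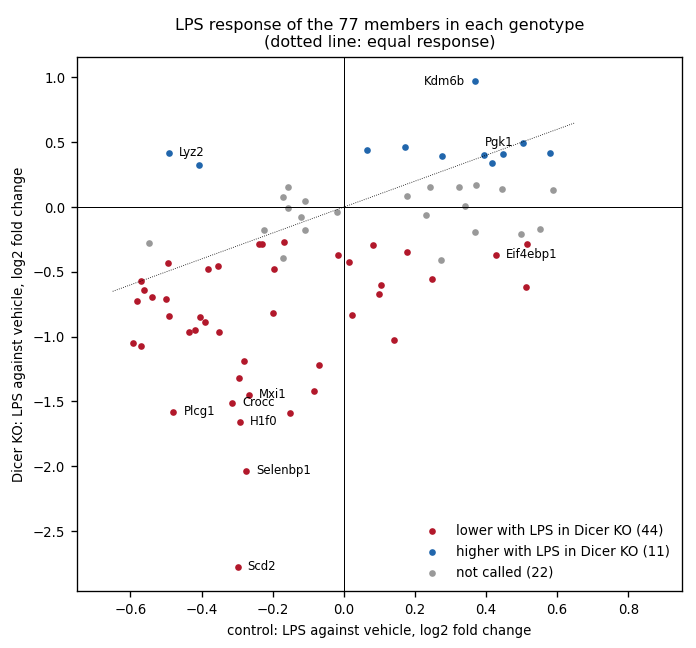
Log2 fold change of LPS against vehicle in control (x axis) and in Dicer KO (y axis) for the 77 members, coloured by the edgeR call in Dicer KO; the dotted line marks equal responses. Scd2, Selenbp1 and H1f0 lie lowest at −2.78, −2.04 and −1.66, and of the 11 rises all but Kdm6b turn negative when libraries are scaled by their totals.

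By role, falls and rises in Dicer KO are listed here. Over all genes tested 42.7% fell and 37.4% rose, and over the flat genes 38.5% and 33.9%. Most groups are small and were made with earlier results known. The rule shapes this response by construction, so no difference from these shares is read. The 5 hypoxia members outside glycolysis held 4 falls and no rise, with Fam162a, whose call was often lost, among the falls. The 9 of transcription and chromatin held 7 falls and 1 rise, and the 11 of signalling, cytoskeleton and trafficking 8 and 1. Receptors and surface proteins held 5 falls and 1 rise among 11, RNA and translation 4 and 0 among 6, and glycogen and sugar phosphates 2 and 0 among 4. Falls and rises were 2 and 2 among the 7 glycolytic members, 4 and 2 among the 9 of lipids and small molecules, and 1 and 1 among the 5 of the endoplasmic reticulum and secretory path. The rise in the last of these groups was that of Efemp2, whose call was also often lost. The 5 noncoding, predicted or unmatched genes held 4 and 1, Dicer1 and Lyz2 1 and 1, and the remaining 3 members 2 and 1. The 4 falls include Gm10197 and Gm26762, whose exons overlap those of Mxi1 and Gpi1, so these may not be separate falls.

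The thresholds cut through a continuous range. Just inside the vehicle limit were Plcg1, Ccdc58 and Ppp1r3b at 0.669 each, and just outside were D10Jhu81e at 0.675, Prkar2b at 0.675 and Aldoa at 0.677. In LPS, Ldhd at 0.645 and Ogt and Prrg1 at 0.643 were inside, with Pard6a at 0.694, Acpp at 0.710 and Prdm9 at 0.710 outside. On the control response Crip1 and Creld1 at 0.674 and Pdk1 at 0.679 were inside the lower limit, with Tmem35b at 0.662, Pygl at 0.659 and Slc29a1 at 0.651 outside. At the upper limit Spats2 at 1.47 and Ppp1r3b at 1.46 were inside, and Mmp12 at 1.66, Aph1b at 1.70 and Pfkl at 1.86 outside. The 5 CPM limit kept ENSMUSG00000103515 at 5.06 and Dpep3 at 5.16 CPM and left out Tmc4 at 4.69, Noxo1 at 4.57 and Cavin1 at 4.55 CPM.

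The members were less abundant than other genes at 5 CPM or more, with a median of 22.2 against 30.7 CPM in control vehicle, and 27 of them were below 10 CPM. Per kilobase of exon the control vehicle level was highest in Lyz2 at 4342 CPM, then Pgk1 at 349.7, Gapdh at 347, Tpi1 at 259 and Eno1 at 174 CPM. There were 73 protein-coding genes among them, 94.8% against 94.6% of genes at 5 CPM or more. The median exonic length of the protein-coding members was 4120 bases against 4711, their gene span 17243 against 24711 bases, and the GC content of the longest transcript 52.1 against 49.4%. Chromosome 7 held 10 members (13% against 7.40% of genes at 5 CPM or more), among them the overlapping Gpi1 and Gm26762. Chromosome 15 held 7 members (9.09% against 3.79%), and chromosomes 5 and 13 held none. In 11 members over 5% of the exonic bases were overlapped by a gene on the opposite strand.

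Promoter windows of 250 bases before to 50 after the start were matched for 59 of the 77 members and for 7686 of the genes at 5 CPM or more. ACGTG, on either strand, was found for 44.1% of matched members and 30.7% of matched genes, and GCGTG for 57.6 and 57.5%. At least 1 of the 2, the core as defined above, was found for 71.2% of matched members and 69.3% of matched genes. Of the 12 members on the glycolysis or hypoxia lists, 8 had ACGTG, 8 had GCGTG and 10 had at least 1 of them. Members had more windows per gene, 1.47 against 1.28, which gives more sequence to search. CACGTG, the E-box that contains ACGTG, was found for 6.78 against 12.5%, CCAAT for 28.8 against 42.4%, GGGCGG for 81.4 against 70.4% and TATAAA for 6.78 against 8.24%. The cyclic AMP element TGACGTCA was found in no matched member and 3.79% of genes. GAGGAAGT, a site of the macrophage factor PU.1, was at 1.69 against 4.19%, TGANTCA, the AP-1 site, at 6.78 against 5.98%, and the doubled core of the interferon-stimulated response element at 5.08 against 4.11%. A match describes the letters of the window and not the binding of a factor.

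Other lists held few members. The microRNA machinery list held Dicer1 alone, and among its 14 other genes there were 7 higher and 2 lower in Dicer KO vehicle and 5 higher and 6 lower in LPS. Lyz2 was the sole member among lysozymes and granule proteins, where none of the other 12 genes was called in vehicle (3 were higher in LPS). H1f0 was the sole histone, with 3 of the other 17 higher and 3 lower in vehicle and 2 higher and 7 lower in LPS. Scd2 and Fabp4 came from the list of fatty acid synthesis and lipid droplets, whose 29 other genes had 12 higher and 2 lower in vehicle and 6 higher and 16 lower in LPS. The macrophage transcription factors gave Nr4a1 and Ets1, with 10 of 43 others higher and 13 lower in vehicle and 18 higher and 15 lower in LPS. Plcg1 was the member in phosphoinositide signalling, Plxdc2 among axon guidance receptors, Cacnb1 among ion channels, and Slc37a4 and Slc39a4 among 210 solute carriers tested.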

How the data were processed

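The authors deposited raw counts, whole numbers of reads for each Ensembl gene, in a separate file for every library. The labels' protocols name a stranded mRNA kit, and the submitters' processing notes list STAR 2.5, DESeq2 (no version given) and, as builds, mm10 and GRCm38.p5. Which program counted the reads, with what strand setting and which gene models, is not given in the sources used here. In the files 41.7 to 43.3% of reads were assigned to genes, and the reads in no gene (45.8 to 46.8%), ambiguous (0.626 to 0.768%) or not unique (9.86 to 11.6%) were left out of library sizes. Depth was 16172600 to 18886948 counts per library, and counting error is largest for members of low CPM. Symbols, coordinates and lengths come from GENCODE M21 (GRCm38).

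The analysis used edgeR 4.0.16 (R 4.3.3): filterByExpr (13837 genes kept), TMM scaling, and a robust quasi-likelihood fit to all 12 libraries with 1 mean per group. Benjamini-Hochberg adjustment was made over all genes in each comparison, tests were two-sided, and a call is an adjusted p under 0.05. The biological coefficient of variation was 6.30%. Errors of levels are SD over n = 3 libraries and those of log2 fold changes are SE of the model. The fit was tested on simulated data. The interaction of genotype and LPS was not tested, since it is built from the ratios that chose the members. The 77 members, the gene lists and the role groups were chosen with earlier results of these data known. Of the members, 41 are named by a rule that skips predicted genes and those with no symbol: Dicer1 and Lyz2, the 15 lowest mean ratios, the 12 highest levels, the 10 largest called rises and falls in Dicer KO, and up to 6 members of each list. Genes just inside and outside each limit are also named. Some genes that these rules choose are not reported here. Alternatives were other scalings (DESeq2 1.42.0 size factors, library totals), other limits of the rule, no filter on low counts, DESeq2, a replicate block, fits of 6 libraries, and leaving out libraries.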

Additional observations from a re-analysis of the deposited data

Results flagged for a closer look

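In 4 members every Dicer KO library moved one way with LPS and every control library the other way. The difference between genotypes was not tested for them, since the ratios that make it up chose the members. Eif4ebp1 had an LPS to vehicle ratio of 0.779 in Dicer KO and 1.34 in control, and Dicer1 had 0.792 and 1.13. Ifi27 had 1.24 in Dicer KO and 0.756 in control, and Lyz2 had 1.33 and 0.711. The rises of Ifi27 and Lyz2 in Dicer KO turn into falls when libraries are scaled by their totals.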

How the results depend on the processing

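The number of members was 77 and ranged from 59 to 84 when replicates or single libraries were left out and the rest scaled anew. With the scaling of all 12 libraries kept, leaving out replicates 1, 2 and 3 gave 80, 57 and 82. It was 50 with a minimum of 10 CPM, 109 with a minimum of 2 CPM, 16 with ratios of at most 0.5, 73 with DESeq2 size factors (71 shared), 63 with medians in place of means (56 shared) and 72 without the libraries that stood apart (61 shared; added after seeing the data). Library totals gave 109 members, of which only 36 were shared, and scaling factors from all genes gave 81 (72 shared; also added after seeing the data). Library totals moved the median log2 fold change of all genes to −0.12 (genotype in vehicle), −0.38 (genotype in LPS), −0.58 (LPS in control) and −0.85 (LPS in Dicer KO). The calls among all genes were then 2229 higher and 4577 lower, 1885 and 7626, 3066 and 8737, and 2637 and 9623, in the same order, against 3459 and 2935, 3983 and 3741, 5258 and 5690, and 5173 and 5905 with TMM.

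For LPS in Dicer KO, library totals called 0 members higher and 72 lower. Rises turned to −0.33 for Lyz2, −0.34 for Cbr2, −0.43 for Ifi27, −0.41 for Gapdh, −0.25 for Pgk1, −0.28 for Eps8l1, −0.31 for Dubr, −0.33 for Ldhd and −0.35 for Efemp2. Without a filter 7 members rose. DESeq2 called 13 higher and 34 lower. Leaving out single libraries gave 5 to 13 higher and 34 to 45 lower, and over all genes 2919 to 3785 higher and 2335 to 3165 lower for genotype in vehicle, 3621 to 4103 and 3325 to 3901 for genotype in LPS, 5119 to 5364 and 5467 to 5789 for LPS in control, and 5029 to 5268 and 5704 to 6019 for LPS in Dicer KO. Of the named genes under these alternatives, 583 values kept direction and call, 53 lost the call and 10 reversed. Where not stated otherwise the cause was not tested. With a limit of ratios under 1 in the replicate left out, 80 of 80, 57 of 57 and 82 of 82 genes met it. The share of flat genes that met it was not counted, and the replicates may be technical, so nothing is read from these counts.

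The labels do not say whether replicate numbers pair the samples. Same-numbered libraries correlated from −0.464 to 0.378 in their deviations from the group means, over 0.1 in 5 of 18 pairs. Deviations from means of 3 libraries cannot show that pairing is absent. With the replicate block 11 members rose and 43 fell with LPS in Dicer KO, and Efemp2 lost its call at 0.40. Members below 10 CPM rest on few counts and their ratios are the least precise.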
